A study of Homo sapiens with 17 samples.

Results

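The genes described here are 48 genes of human MHC class I antigen processing and of the interferon response, chosen by name from the pathway. They were chosen with earlier results of these data known, and were followed whether or not they changed. A gene was measured through the probe sets of the expression array that are annotated to it alone, under its current or an older symbol, and the probe set with the highest mean over the 17 arrays stood for it. On that rule 47 of the 48 members were measured among 19775 genes in all, and STAT2 was not analysed here. The members comprised 5 chains of class I molecules, the class I activator NLRC5, 8 genes of peptide production and loading, 3 transcription factors, 3 nucleic acid sensors, 3 genes of the ISG15 system, 18 antiviral effectors and 6 other interferon-induced genes. The study profiled L363, an established human multiple myeloma cell line, after 48 h of treatment with MS275, rapamycin or both. MS275 (entinostat) inhibits class I histone deacetylases, and rapamycin inhibits the mTORC1 kinase complex. The 6 groups were MS275 at 0.5 uM (3 arrays), 1 nM rapamycin (3), 10 nM rapamycin (3), 1 nM rapamycin with 0.5 uM MS275 (the 1 nM combination, 3), 10 nM rapamycin with 0.5 uM MS275 (the 10 nM combination, 2) and the control (3). The 10 nM combination has 2 arrays because 1 did not pass the quality control, per the design text. All groups were cells of 1 line, and the labels do not state whether arrays of a group came from separate cultures, so the p-values measure the spread between arrays, which may be technical.

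MHC class I molecules carry peptides from inside the cell to its surface, where cytotoxic T cells inspect them. The peptides are cut by proteasomes, including the immunoproteasome subunits PSMB8, PSMB9 and PSMB10, pumped into the endoplasmic reticulum by TAP1 and TAP2, trimmed by ERAP1 and ERAP2, and loaded with the help of tapasin (TAPBP) onto a heavy chain paired with beta-2-microglobulin (B2M). Interferons raise many of these genes: type I interferon acts through a complex that holds IRF9 and binds a DNA element called the ISRE, while interferon gamma acts through elements called GAS and through IRF1. Plasma cells, the cells from which myeloma arises, secrete large amounts of protein.

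Markers fixed for plasma cells had a median log2 level of 11.57 over 9 genes, with SDC1 at 12.28, IRF4 at 12.49 and MZB1 at 12.59, and CD27 was the lowest at 4.68. Marker means ranged between 3.89 and 5.14 for T cells, 4.39 and 4.55 for NK cells, 2.73 and 5.16 for myeloid cells, 4.30 and 7.09 for B cells, 4.64 and 6.92 for fibroblasts, and 2.72 and 5.85 for epithelial cells. The standard deviation of all values on an array was 2.14 and 2.15 on replicate 1 of the control and replicate 1 of the 1 nM combination, and lay between 2.27 and 2.37 on the other 15 arrays. These 2 arrays with a narrow range of values stay in the comparisons, and each call that is lost without them is named. No detection calls were used, so signal over background is unknown, and 13 members had a mean log2 level under 5. In 10 of those 13 the control array with the narrow range was the highest of the control arrays. In bulk RNA, a shift in the share of cells that express a gene and a shift in RNA per cell cannot be told apart.

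With MS275, the members moved in both directions. The class I activator NLRC5 rose 2.41-fold and the class I chain HLA-E 1.51-fold, while the transporter subunit TAP2 and the peptide trimming enzyme ERAP2 fell. Of the interferon-induced genes IFI6, OAS1, USP18, IFIT3 and the sensor RIGI rose, and the sensor ZBP1 fell 3.51-fold. These are MS275 main effects, the mean of the 3 groups given MS275 (8 arrays) minus the mean of the 3 groups not given it (9 arrays) in 1 limma fit over all genes, called at a Benjamini-Hochberg adjusted p under 0.05. The call covered 10 of 47 members, 7 higher and 3 lower, or 21.3% of them. Of all genes 8.13% were called, 4.54% higher and 3.59% lower. The list was chosen with earlier results of these data known. The shares of members called, here and below, are therefore no independent test of the list. The median log2 change was 0.05 over the members and 0.02 over all genes. The plot of all members shows both main effects side by side.

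**Figure D1:**
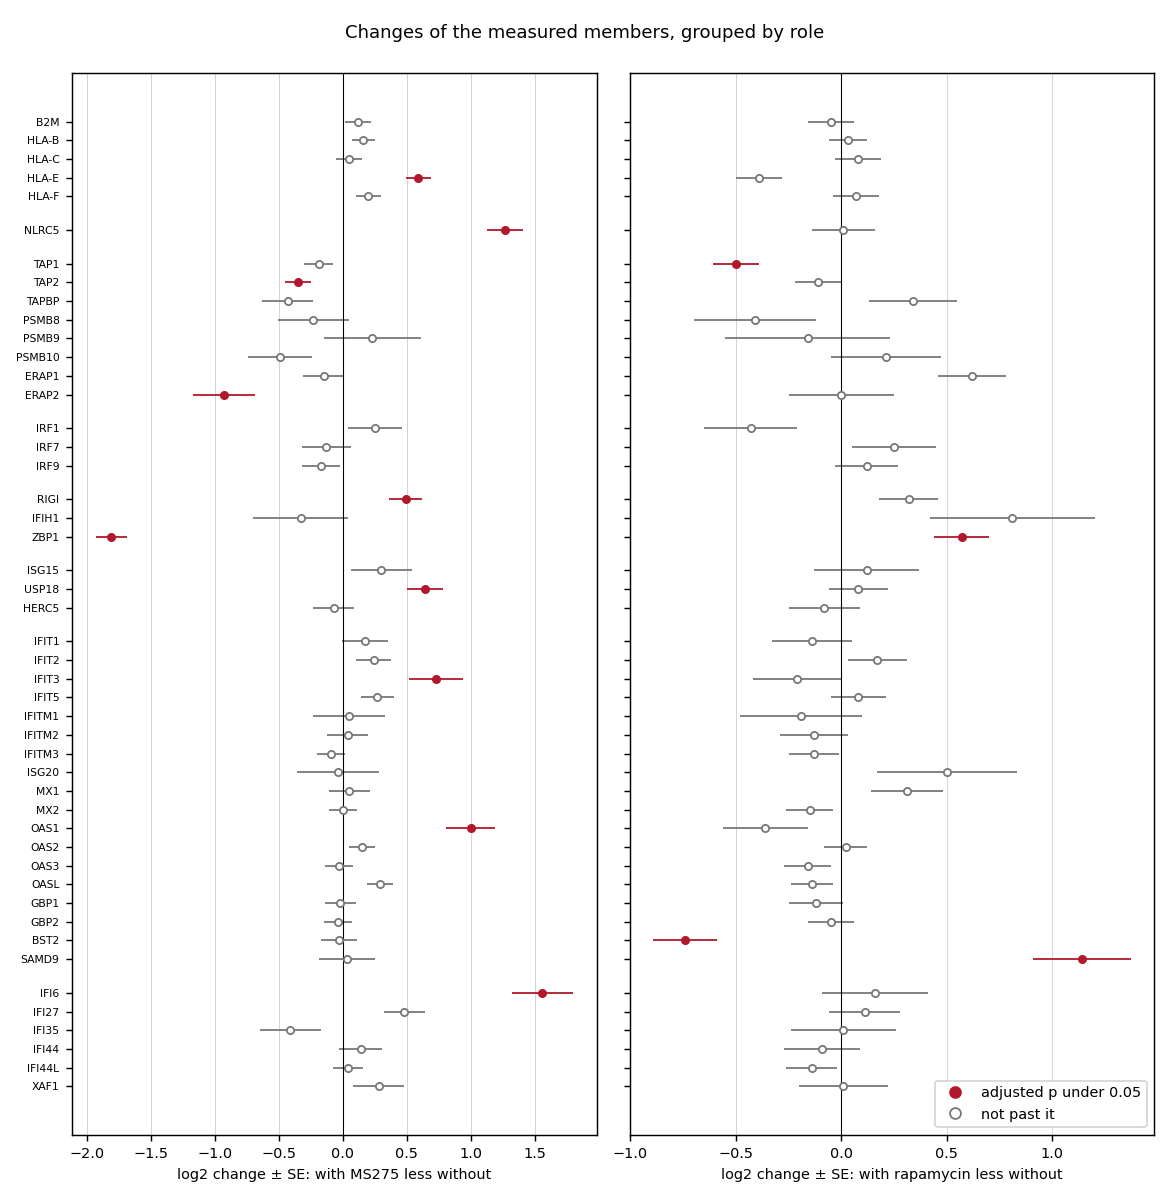
Log2 change of each of the 47 measured members with its standard error, for the MS275 main effect and the rapamycin main effect, with filled red points for members past an adjusted p of 0.05 in limma. With MS275 7 members were called higher and 3 lower, and with rapamycin 2 higher and 2 lower.

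NLRC5 is the transactivator that acts at the promoters of class I genes. NLRC5 stood at 7.44, 7.48 and 7.05 in MS275 cells, 7.89, 7.61 and 7.16 in the 1 nM combination and 7.79 and 7.24 in the 10 nM combination. NLRC5 stood at 6.32, 6.40 and 6.26 in control cells, 5.89, 6.48 and 5.82 with 1 nM rapamycin and 6.07, 6.50 and 6.02 with 10 nM rapamycin. All 8 arrays with MS275 lay above all 9 arrays without it, and the lowest of them was 7.05 against a highest of 6.50. The MS275 main effect on NLRC5 was 1.27 ± 0.14 on the log2 scale (SE, limma adjusted p = 8.13e-05). Groups that do not overlap in this comparison were found for 1.71% of all genes and for 3 members, NLRC5, IFI6 and ZBP1. The NLRC5 call was kept when each of the 17 arrays was left out in turn.

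The genes that code for the class I molecule itself were measured at high signal and mostly did not pass the test. HLA-E stood at 13.03, 12.55 and 12.57 in MS275 cells, 12.26, 12.42 and 12.42 in the 1 nM combination and 12.13 and 12.39 in the 10 nM combination. HLA-E stood at 12.36, 11.83 and 12.13 in control cells, 11.66, 11.76 and 11.52 with 1 nM rapamycin and 11.76, 11.84 and 11.84 with 10 nM rapamycin. HLA-E presents leader peptides of other class I chains to NK cell receptors. The groups overlapped through the first control array, at 12.36, which was above the lowest arrays with MS275. HLA-E rose by 0.59 ± 0.10 on the log2 scale (limma adjusted p = 0.00262). Another HLA-E probe set gave 1.29 ± 0.13 (adjusted p = 6.98e-05 in a limma fit over all probe sets), so the direction was shared and the size differed more than 1.5 times on the log2 scale. It is the only HLA-E probe set not marked as able to bind related transcripts. The remaining HLA-E probe set, so marked, gave 0.44 ± 0.09 (adjusted p = 0.0111 in that limma fit). B2M stood at 13.60, 13.97 and 13.65 in MS275 cells, 13.31, 13.85 and 13.55 in the 1 nM combination and 13.64 and 13.67 in the 10 nM combination. B2M stood at 13.40, 13.69 and 13.43 in control cells, 13.61, 13.44 and 13.54 with 1 nM rapamycin and 13.70, 13.52 and 13.45 with 10 nM rapamycin. B2M is the light chain shared by all class I molecules. Its MS275 main effect was 0.12 ± 0.10 on the log2 scale, and the arrays with and without MS275 overlapped. HLA-B stood at 13.48, 13.72 and 13.44 in MS275 cells, 13.72, 13.74 and 13.58 in the 1 nM combination and 13.59 and 13.49 in the 10 nM combination. HLA-B stood at 13.58, 13.23 and 13.46 in control cells, 13.34, 13.49 and 13.33 with 1 nM rapamycin and 13.35, 13.59 and 13.46 with 10 nM rapamycin. HLA-B is a classical heavy chain, and its arrays with and without MS275 overlapped as well. HLA-B had a change of 0.16 ± 0.09, HLA-C 0.05 ± 0.10 and HLA-F 0.20 ± 0.10 on the log2 scale, and none of the 3 passed the test. HLA-B, HLA-C, HLA-E and HLA-F were shown by probe sets that may also bind related transcripts, so their signals may be mixed.

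Of the 8 genes of peptide production and loading, 0 rose, 2 fell and the list's median log2 change was -0.29, against 0.02 over all genes. ERAP2 stood at 7.34, 8.22 and 7.37 in MS275 cells, 6.69, 8.35 and 7.84 in the 1 nM combination and 7.99 and 8.07 in the 10 nM combination. ERAP2 stood at 8.29, 9.56 and 8.60 in control cells, 8.67, 8.85 and 8.31 with 1 nM rapamycin and 8.79, 8.87 and 8.30 with 10 nM rapamycin. ERAP2 trims peptides in the endoplasmic reticulum. Of the arrays with MS275 only 1 nM combination replicate 2, at 8.35, reached the range of the arrays without it, which began at 8.29. ERAP2 fell by 0.93 ± 0.24 on the log2 scale (limma adjusted p = 0.0272), and all 5 of its probe sets had a negative change. In a limma fit over all probe sets, the adjusted p was 0.0377 and 0.0458 for those that passed. It was 0.164 to 0.49 for the others, and the dimmest of them had a mean log2 level of 2.21. The ERAP2 call was lost in 8 of 17 fits that left out 1 array: MS275 replicates 1 and 3, 1 nM rapamycin replicates 1 and 2, 10 nM rapamycin replicates 1 and 2, and either 10 nM combination array (adjusted p 0.0546 to 0.0717, log2 change -0.94 to -0.88). TAP2 stood at 8.35, 8.35 and 8.47 in MS275 cells, 8.55, 8.65 and 8.47 in the 1 nM combination and 8.33 and 8.34 in the 10 nM combination. TAP2 stood at 9.12, 9.18 and 8.58 in control cells, 8.60, 8.84 and 8.54 with 1 nM rapamycin and 8.71, 8.86 and 8.60 with 10 nM rapamycin. TAP2 is the second subunit of the peptide transporter, and its groups overlapped between 8.54 and 8.65. TAP2 fell by 0.35 ± 0.10 (limma adjusted p = 0.0442). The TAP2 call remained in the fits that left out control replicate 1 or 3, and was lost without any one of the other 15 arrays (adjusted p 0.0542 to 0.109). It was also lost without both narrow arrays (adjusted p = 0.0561), with quantile normalization (adjusted p = 0.174), array weights (adjusted p = 0.0587), the filter on dim genes (adjusted p = 0.0509) and the eBayes trend (adjusted p = 0.135), and kept in 4 of 9 such settings. TAPBP, ERAP1, TAP1 and the immunoproteasome subunits did not pass this test, but TAPBP, at -0.43 ± 0.20 (adjusted p = 0.275), passed with the replicate number as a block (adjusted p = 0.0312). That block takes the 10 nM combination by its labelled numbers. Its correlations with same-numbered arrays of other groups fell as low as -0.743, so the TAPBP pass is uncertain. PSMB9 stood at 9.95, 8.58 and 10.31 in MS275 cells, 9.50, 8.42 and 10.28 in the 1 nM combination and 8.22 and 10.04 in the 10 nM combination. PSMB9 stood at 9.70, 8.56 and 9.13 in control cells, 9.09, 8.60 and 9.91 with 1 nM rapamycin and 8.67, 8.56 and 10.16 with 10 nM rapamycin. PSMB9 is a catalytic subunit of the immunoproteasome. Replicate 2 was the lowest array of every group of 3. The PSMB9 change was 0.23 ± 0.38 on the log2 scale, and it was -0.08 without replicate 2 of the 10 nM combination.

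Of the 33 interferon-response members, 5 rose and 1 fell with MS275, or 18.2% of them. Of all genes 8.13% were called, 4.54% higher and 3.59% lower. IFI6 stood at 8.98, 9.07 and 8.73 in MS275 cells, 9.41, 8.57 and 9.22 in the 1 nM combination and 7.90 and 9.09 in the 10 nM combination. IFI6 stood at 7.86, 6.91 and 6.10 in control cells, 7.69, 7.21 and 7.48 with 1 nM rapamycin and 7.62, 7.0 and 7.59 with 10 nM rapamycin. IFI6 is an interferon-induced protein of intracellular membranes known to limit some viruses and cell death. No array with MS275 overlapped one without it. IFI6 rose by 1.56 ± 0.24 on the log2 scale, or 2.94-fold (limma adjusted p = 0.000862). The IFI6 call was kept without each array in turn. OAS1 stood at 5.73, 5.11 and 5.95 in MS275 cells, 5.26, 4.68 and 5.62 in the 1 nM combination and 4.62 and 5.62 in the 10 nM combination. OAS1 stood at 4.88, 4.17 and 4.41 in control cells, 4.24, 4.10 and 4.23 with 1 nM rapamycin and 4.10, 3.95 and 4.62 with 10 nM rapamycin. OAS1 makes the second messenger that activates RNase L when it binds double-stranded RNA. Its arrays with and without MS275 overlapped between 4.62 and 4.88. OAS1 rose by 1.00 ± 0.19 (limma adjusted p = 0.00404), at a low signal. USP18 stood at 5.39, 5.24 and 5.11 in MS275 cells, 5.43, 4.84 and 5.53 in the 1 nM combination and 5.10 and 5.52 in the 10 nM combination. USP18 stood at 4.82, 4.76 and 4.08 in control cells, 4.73, 4.84 and 4.57 with 1 nM rapamycin and 4.58, 4.44 and 4.86 with 10 nM rapamycin. USP18 removes ISG15 from proteins and dampens type I interferon signalling at the receptor. The groups overlapped only between 4.84 and 4.86. USP18 rose by 0.64 ± 0.14 (limma adjusted p = 0.0094), also at a low signal. The mean log2 level was 4.93 for USP18 and 4.78 for OAS1. The filter on dim genes, at a mean of 5, removes both, so that setting could not test these calls. The OAS1 and USP18 calls were also kept without each of the 17 arrays in turn.

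IFIT3 stood at 6.91, 6.38 and 7.23 in MS275 cells, 6.99, 6.32 and 7.56 in the 1 nM combination and 5.99 and 7.16 in the 10 nM combination. IFIT3 stood at 6.43, 5.87 and 6.57 in control cells, 5.90, 5.67 and 6.03 with 1 nM rapamycin and 6.11, 5.80 and 6.15 with 10 nM rapamycin. IFIT3 is a partner of the RNA-binding IFIT proteins, and its arrays with and without MS275 overlapped between 5.99 and 6.57. IFIT3 rose by 0.73 ± 0.21 on the log2 scale (limma adjusted p = 0.0412), and another IFIT3 probe set gave 2.44 ± 0.54 (adjusted p = 0.0146 over all probe sets). The IFIT3 call remained without control replicate 1 or 3, MS275 replicate 2, 1 nM combination replicate 2 or 10 nM combination replicate 1. It was lost without any one of the other 12 arrays (adjusted p 0.0594 to 0.163), without both narrow arrays (adjusted p = 0.0608) and with median centring (adjusted p = 0.0553). RIGI stood at 7.33, 7.15 and 7.25 in MS275 cells, 7.23, 7.17 and 7.54 in the 1 nM combination and 7.30 and 7.71 in the 10 nM combination. RIGI stood at 6.09, 6.51 and 7.06 in control cells, 7.10, 7.15 and 7.05 with 1 nM rapamycin and 6.76, 6.88 and 7.22 with 10 nM rapamycin. RIGI senses viral RNA with a free triphosphate end. The 3 arrays of MS275 alone stood above the 3 control arrays, while the 2 rapamycin groups lay close to the arrays with MS275. RIGI rose by 0.49 ± 0.13 (limma adjusted p = 0.0357). This probe set may also bind related transcripts, and the other RIGI probe sets gave 0.35 and 0.42 without passing (adjusted p = 0.641 and 0.305 over all probe sets). The RIGI call was lost with the mean of its probe sets (adjusted p = 0.182), with median centring (adjusted p = 0.0861) and with the eBayes trend (adjusted p = 0.0572). It remained without control replicate 1 or 3, 1 nM combination replicate 1 or 2, 10 nM rapamycin replicate 3 or 10 nM combination replicate 1, and was lost without any one of the other 11 arrays (adjusted p 0.0516 to 0.13).

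ZBP1 senses left-handed nucleic acids and can start necroptosis. ZBP1 stood at 5.90, 5.47 and 5.71 in MS275 cells, 5.54, 5.85 and 5.83 in the 1 nM combination and 5.97 and 6.10 in the 10 nM combination. ZBP1 stood at 7.0, 7.05 and 6.96 in control cells, 8.04, 7.65 and 7.96 with 1 nM rapamycin and 8.50, 7.92 and 7.62 with 10 nM rapamycin. No array with MS275 overlapped one without it, and the arrays with rapamycin alone were the highest. ZBP1 fell by 1.81 ± 0.12 on the log2 scale (limma adjusted p = 1.03e-06), and another ZBP1 probe set gave -0.95 ± 0.18 (adjusted p = 0.00718 over all probe sets). The ZBP1 call was kept without each array in turn.

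**Figure D2:**
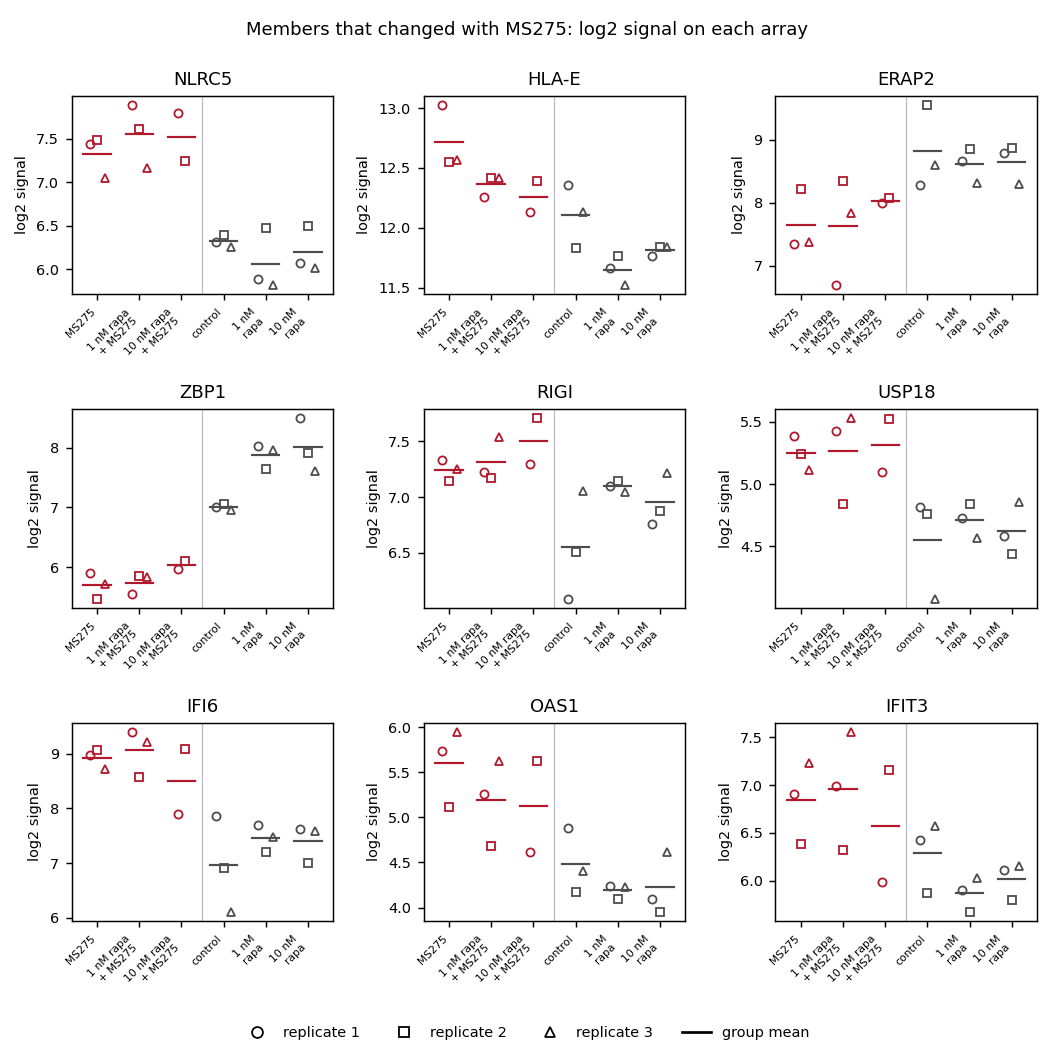
Log2 level on each array (points, marked by replicate number) and group mean (line) for NLRC5, HLA-E, ERAP2, ZBP1, RIGI, USP18, IFI6, OAS1 and IFIT3, with the 3 groups given MS275 left of the 3 groups not given it. NLRC5 and IFI6 sit higher and ZBP1 lower on every array with MS275.

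The transcription factors and several of the best-known interferon-induced genes did not pass the test. IRF9 stood at 7.65, 7.23 and 7.57 in MS275 cells, 6.89, 7.47 and 7.50 in the 1 nM combination and 7.30 and 7.40 in the 10 nM combination. IRF9 stood at 6.92, 7.03 and 7.87 in control cells, 7.59, 7.76 and 7.70 with 1 nM rapamycin and 7.40, 7.78 and 7.83 with 10 nM rapamycin. IRF9 is the DNA-binding part of the type I interferon complex, and its change was -0.17 ± 0.15 on the log2 scale. IRF1 stood at 6.82, 6.12 and 6.89 in MS275 cells, 7.24, 6.19 and 6.80 in the 1 nM combination and 5.83 and 6.54 in the 10 nM combination. IRF1 stood at 7.35, 6.07 and 6.80 in control cells, 5.83, 5.85 and 6.18 with 1 nM rapamycin and 5.71, 6.21 and 6.38 with 10 nM rapamycin. IRF1 drives class I and interferon gamma target genes. Its change was 0.25 ± 0.21, and the values with and without MS275 overlapped across nearly their whole range. ISG15 stood at 8.84, 7.79 and 8.57 in MS275 cells, 7.76, 7.30 and 8.32 in the 1 nM combination and 7.68 and 8.09 in the 10 nM combination. ISG15 stood at 7.85, 6.90 and 6.83 in control cells, 8.06, 7.45 and 8.53 with 1 nM rapamycin and 7.79, 7.44 and 8.65 with 10 nM rapamycin. ISG15 is a ubiquitin-like protein that is coupled to other proteins. MS275 replicates 1 and 3 stood above every control array, but the arrays with rapamycin alone were high too, and the MS275 main effect was 0.30 ± 0.24. IFIT1 stood at 3.16, 3.03 and 3.36 in MS275 cells, 3.91, 2.84 and 3.49 in the 1 nM combination and 3.03 and 3.12 in the 10 nM combination. IFIT1 stood at 4.05, 2.76 and 3.03 in control cells, 2.85, 2.76 and 3.17 with 1 nM rapamycin and 2.79, 2.99 and 3.10 with 10 nM rapamycin. IFIT1 binds RNA with a foreign cap, and all its values lay in a dim range. The highest was the narrow control array, and the change was 0.17 ± 0.18. The 37 members not called with MS275 had log2 changes between -0.49 in PSMB10 and 0.48 in IFI27. Of the 18 antiviral effectors, 2 rose and 0 fell with MS275, and the list's median log2 change was 0.04. The called share of this list, 11.1%, was near the 8.13% of all genes. IFI27, an interferon-induced mitochondrial protein, had an adjusted p of 0.0971 and OASL, a relative of OAS1 without its enzyme activity, one of 0.0947 with a change of 0.29. Another OASL probe set rose by 0.8 ± 0.22 (adjusted p = 0.0462 in a limma fit over all probe sets). The OASL probe sets thus share the direction and differ on the call.

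Promoter sequences are shown for members that changed with MS275 (IFI6, OAS1, RIGI) or with rapamycin (BST2, SAMD9) and for ISG15, a classical interferon-induced gene that passed neither test, so that windows with and without the ISRE core can be seen. The windows hold 250 bases before to 50 after the gene's start, on the gene's own strand, from RefSeq on GRCh38.p14, and 36 members had one. Capitals mark every match to the ISRE core, taken as GAAA, any 2 bases and GAAA again and searched on both strands; overlapping matches run together.
IFI6: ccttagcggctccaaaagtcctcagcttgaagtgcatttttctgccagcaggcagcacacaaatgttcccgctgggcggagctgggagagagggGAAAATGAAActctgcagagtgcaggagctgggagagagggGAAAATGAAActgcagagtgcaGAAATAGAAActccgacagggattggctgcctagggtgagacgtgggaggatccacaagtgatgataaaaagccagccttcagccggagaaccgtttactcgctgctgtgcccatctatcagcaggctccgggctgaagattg
OAS1: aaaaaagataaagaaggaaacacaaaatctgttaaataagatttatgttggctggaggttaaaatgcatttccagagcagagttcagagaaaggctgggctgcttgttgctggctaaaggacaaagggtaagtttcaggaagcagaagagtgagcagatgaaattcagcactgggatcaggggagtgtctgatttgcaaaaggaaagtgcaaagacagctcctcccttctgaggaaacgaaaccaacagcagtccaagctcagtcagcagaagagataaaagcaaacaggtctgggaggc
RIGI: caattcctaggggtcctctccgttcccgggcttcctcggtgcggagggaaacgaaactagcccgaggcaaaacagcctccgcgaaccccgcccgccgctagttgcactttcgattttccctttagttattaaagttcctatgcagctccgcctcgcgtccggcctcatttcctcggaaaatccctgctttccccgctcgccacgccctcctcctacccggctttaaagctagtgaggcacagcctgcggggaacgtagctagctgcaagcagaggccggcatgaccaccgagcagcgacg
ISG15: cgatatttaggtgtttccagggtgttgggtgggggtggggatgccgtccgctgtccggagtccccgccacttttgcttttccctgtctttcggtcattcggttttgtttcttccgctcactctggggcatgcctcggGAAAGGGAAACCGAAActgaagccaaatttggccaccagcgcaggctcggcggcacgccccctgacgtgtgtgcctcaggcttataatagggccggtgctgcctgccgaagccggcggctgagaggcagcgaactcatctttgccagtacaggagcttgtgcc
BST2: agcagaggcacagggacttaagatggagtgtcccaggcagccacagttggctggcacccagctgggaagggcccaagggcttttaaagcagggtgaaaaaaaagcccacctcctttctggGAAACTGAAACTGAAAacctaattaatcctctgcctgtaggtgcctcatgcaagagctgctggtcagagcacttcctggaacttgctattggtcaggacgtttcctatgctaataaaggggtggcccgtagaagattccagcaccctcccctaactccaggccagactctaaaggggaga
SAMD9: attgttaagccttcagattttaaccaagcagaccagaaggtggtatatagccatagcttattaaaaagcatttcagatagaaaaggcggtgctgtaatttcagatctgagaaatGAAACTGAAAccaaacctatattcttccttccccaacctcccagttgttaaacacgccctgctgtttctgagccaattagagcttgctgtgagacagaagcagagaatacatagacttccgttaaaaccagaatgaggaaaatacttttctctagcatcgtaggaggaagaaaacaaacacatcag
The IFI6 window is chr1:27672143-27672442 on the minus strand and holds 3 matches. The OAS1 window, chr12:112906712-112907011 on the plus strand, and the RIGI window, chr9:32526147-32526446 on the minus strand, hold 0. Both of these windows do hold GAAA, 1 base and GAAA again, a spacing that the search did not count. The ISG15 window is chr1:1013247-1013546 on the plus strand with 2, the BST2 window is chr19:17405581-17405880 on the minus strand with 2, and the SAMD9 window is chr7:93117930-93118229 on the minus strand with 1. The core was found in 27 of 36 members (75.0%) and in 1195 of 27305 genes (4.38%). A gene with several windows was counted if any of them held a match. Among members with a window, the core was in 2 of 4 that rose with MS275, 2 of 2 that fell and 23 of 30 that were not called. NLRC5, HLA-E, USP18 and ZBP1, which were called with MS275, had no window. The GAS motif TTCNNNGAA was in 10 of 36 members (27.8%), against 9.38% of all genes, and in 1 of 4, 0 of 2 and 9 of 30 of the same classes. A match is a description of the letters in the window, and a window without a match may still hold closely related letters.

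With rapamycin 4 members changed, as shown by the probe set that stood for each. The tetherin gene BST2 fell 1.67-fold and TAP1 1.41-fold, and SAMD9 rose 2.20-fold and ZBP1 1.48-fold, all by the rapamycin main effect, which is the mean of the 4 groups given rapamycin (11 arrays) minus the mean of MS275 alone and the control (6 arrays). The 4 of 47 members called are 8.51% of them, and 2.35% of all genes were called, 0.41% higher and 1.94% lower. The members' median log2 change was 0.01, and that of all genes was -0.04. Groups without overlap were found for 0 members and for 0.308% of all genes. The 43 members not called had log2 changes between -0.43 in IRF1 and 0.81 in the RNA sensor IFIH1. Of these, the peptide trimming enzyme ERAP1 had 0.62 ± 0.16 (adjusted p = 0.0656) and passed with the replicate number as a block (adjusted p = 0.0394). The limit of the block given for TAPBP holds here too. The other ERAP1 probe sets gave 0.22, 0.88, -0.02 and -0.15 (adjusted p 0.412 to 0.996 in a limma fit over all probe sets). None of them passed, and they differ in direction.

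BST2 stood at 10.69, 10.31 and 10.71 with 1 nM rapamycin, 10.72, 10.32 and 11.06 with 10 nM rapamycin, 11.00, 10.34 and 10.78 in the 1 nM combination and 10.30 and 10.43 in the 10 nM combination. BST2 stood at 11.36, 11.59 and 11.19 in MS275 cells and 11.51, 11.44 and 10.90 in control cells. BST2 (tetherin) holds budding virus particles at the cell surface. The arrays with rapamycin lay below those without it except where the third control array, at 10.90, met the highest of them. BST2 fell by 0.74 ± 0.15 on the log2 scale (limma adjusted p = 0.014), and the call was kept without each array in turn. SAMD9 stood at 10.28, 10.53 and 10.37 with 1 nM rapamycin, 10.91, 10.63 and 9.73 with 10 nM rapamycin, 9.36, 10.47 and 10.10 in the 1 nM combination and 10.44 and 10.36 in the 10 nM combination. SAMD9 stood at 8.66, 9.85 and 9.75 in MS275 cells and 8.72, 9.36 and 8.63 in control cells. SAMD9 is an interferon-induced cytoplasmic protein known to restrict poxviruses. The highest control array equalled the lowest array with rapamycin, both at 9.36 to 2 decimals, and 2 of the 3 MS275 arrays were inside the range of the rapamycin arrays. SAMD9 rose by 1.14 ± 0.23 (limma adjusted p = 0.0151), and it was lost only without MS275 replicate 1 (0.95, adjusted p = 0.0506). TAP1 stood at 8.04, 8.33 and 8.07 with 1 nM rapamycin, 7.97, 8.32 and 8.12 with 10 nM rapamycin, 8.21, 7.82 and 8.26 in the 1 nM combination and 7.57 and 8.02 in the 10 nM combination. TAP1 stood at 8.65, 8.32 and 8.38 in MS275 cells and 8.56, 8.57 and 8.78 in control cells. TAP1 is the other subunit of the peptide transporter. The groups met at 8.32 to 8.33. TAP1 fell by 0.50 ± 0.11 (limma adjusted p = 0.0306). Leaving out control replicate 3, replicate 1 or 3 of MS275 or of 1 nM rapamycin, or replicate 1 of 10 nM rapamycin or of the 10 nM combination ended the call (adjusted p 0.0612 to 0.115), as did median centring (adjusted p = 0.052) and the eBayes trend (adjusted p = 0.0998). TAP2 had -0.11 in the probe set that stood for it, and another TAP2 probe set fell by 0.63 (adjusted p = 0.0121 over all probe sets), so the TAP2 probe sets disagree on the rapamycin effect.

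ZBP1, whose values are given above, rose by 0.57 ± 0.13 with rapamycin over the 4 groups (limma adjusted p = 0.0315), against its fall with MS275. That call remained without 1 nM rapamycin replicate 2, 1 nM combination replicate 1 or any 10 nM rapamycin array, and was lost without any one of the other 12 arrays (adjusted p 0.0502 to 0.0928). It was also lost with quantile normalization (adjusted p = 0.0696), the mean of its probe sets (adjusted p = 0.0508) and the eBayes trend (adjusted p = 0.0532). Its 1 nM and 10 nM rapamycin arrays were all above the control arrays, while both combinations stayed within 5.54 to 6.10. Rapamycin alone against control gave 0 called members at either dose; 0.101% of all genes were called at 1 nM and 0.435% at 10 nM. At an unadjusted p under 0.05 there were 8 members at 1 nM, where 8.05% of all genes were, and 5 at 10 nM, where 6.96% were. The ZBP1 difference at 10 nM was 1.01 ± 0.21 (adjusted p = 0.0514), and the SAMD9 differences were 1.49 at 1 nM and 1.52 at 10 nM on the log2 scale. With array weights in the fit these comparisons called 11 members at 1 nM, where 14.2% of all genes were then called, and 6 at 10 nM, where 9.87% were, so the count of 0 depends on that setting.

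**Figure D3:**
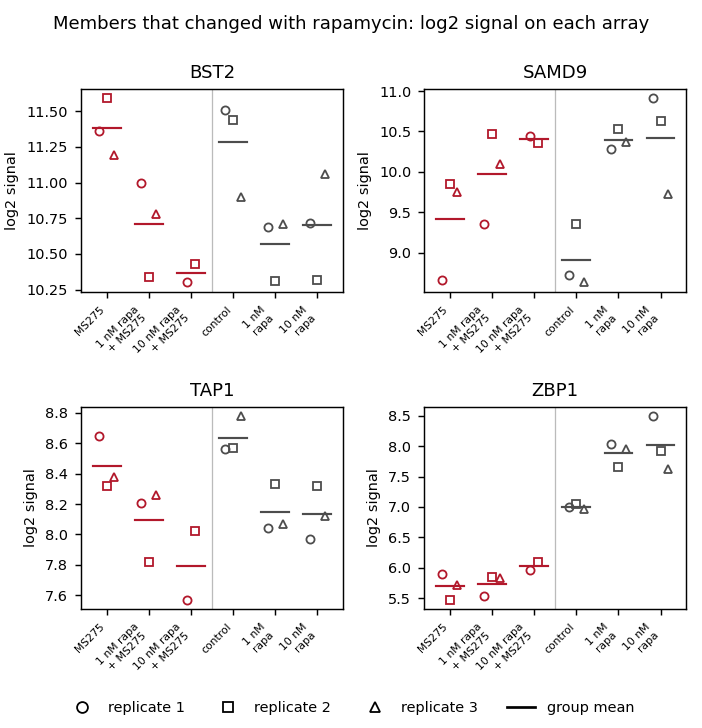
Log2 level on each array (points) and group mean (line) for BST2, SAMD9, TAP1 and ZBP1, with the 3 groups given MS275 left of the 3 not given it, each in order of rapamycin dose. BST2 and TAP1 sit lower and SAMD9 higher with rapamycin, and ZBP1 is high with rapamycin alone and low wherever MS275 was given.

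Set against control, the single treatments and combinations share the same 3 control arrays, so their counts are given side by side. MS275 alone changed ZBP1 (-1.31 ± 0.21, adjusted p = 0.00633) and IFI6 (1.97 ± 0.39, adjusted p = 0.0224), 2 of 47 members where 1.49% of all genes were called. The IFI6 call was lost without control replicate 2 or 3 or any MS275 array (adjusted p 0.0565 to 0.0849, log2 change 1.55 to 2.07). NLRC5 had 1.00 ± 0.24 there with an adjusted p of 0.0563, and 0.0185 when the replicate number was a block, where 3.35% of all genes were called. The 1 nM combination changed ZBP1 (-1.26 ± 0.21, adjusted p = 0.00374), IFI6 (2.11 ± 0.39, adjusted p = 0.00898) and NLRC5 (1.23 ± 0.24, adjusted p = 0.0118), and 2.7% of all genes. With the replicate block ERAP2 (-1.19, adjusted p = 0.0355) and RIGI (0.76, adjusted p = 0.0364) were added, for 5 members, where 5.22% of all genes were called. NLRC5 was not called without both narrow arrays (adjusted p = 0.0674). The 10 nM combination changed NLRC5 (1.19 ± 0.27, adjusted p = 0.0261), ZBP1 (-0.97 ± 0.23, adjusted p = 0.0345) and TAP1 (-0.84 ± 0.20, adjusted p = 0.0351), and 3.3% of all genes. All 3 of those calls were lost without either 10 nM combination array or without control replicate 3. Leaving out control replicate 2, or replicate 1 or 3 of 1 nM rapamycin, ended the TAP1 and ZBP1 calls too, and leaving out control replicate 1 ended that of ZBP1. The adjusted p of these lost calls lay between 0.063 and 0.255 for NLRC5, 0.0516 and 0.329 for TAP1, and 0.0509 and 0.207 for ZBP1. The TAP1 call was also lost with median centring (adjusted p = 0.0557) and the eBayes trend (adjusted p = 0.103), and that of ZBP1 with these, quantile normalization and the mean of its probe sets (adjusted p 0.0573 to 0.0652). With only the arrays of the groups compared, none of the calls against control in this paragraph was kept. All of these are limma tests over all genes.

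Adding MS275 to rapamycin moved ZBP1 and NLRC5 at both doses. At 1 nM, 2 members were called against rapamycin alone, where 1.23% of all genes were: ZBP1 fell by 2.14 ± 0.21 (adjusted p = 0.000262) and NLRC5 rose by 1.49 ± 0.24 (adjusted p = 0.00689). The replicate block added HLA-E (0.72, adjusted p = 0.0496) and IFI6 (1.61, adjusted p = 0.0454), for 4 members, where 2.83% of all genes were called. At 10 nM, where 0.435% of all genes were called, ZBP1 fell by 1.98 ± 0.23 (adjusted p = 0.00158) and NLRC5 rose by 1.32 ± 0.27 (adjusted p = 0.0499). That NLRC5 call remained only without control replicate 1, 1 nM rapamycin replicate 2 or 1 nM combination replicate 1 or 3, and was lost without any one of the other 13 arrays (adjusted p 0.056 to 0.353, log2 change 1.04 to 1.59). It was also lost with quantile normalization, the filter on dim genes and the eBayes trend (adjusted p 0.0526 to 0.0744). With only the arrays of the groups compared, the ZBP1 call at 1 nM was the one kept of these 4. Adding rapamycin to MS275 called 0 members at 1 nM, where 0.106% of all genes were called, and 0 at 10 nM, where 0.253% were (limma, with 1 and 4 members at an unadjusted p under 0.05, where 4.44% and 4.5% of all genes were).

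Whether the effect of MS275 differed with rapamycin was tested as an interaction in the same limma model. No member passed at 1 nM or 10 nM, and 0.0% of all genes did (limma, with 2 members at 1 nM and 0 at 10 nM at an unadjusted p under 0.05, where 4.63% and 0.981% of all genes were). Over all genes the 95% interval reached a median of 0.762 to either side at 1 nM and 0.808 at 10 nM on the log2 scale. The interval is not adjusted over all genes, so smaller differences and also larger ones could be missed by the adjusted test. The change of ZBP1 with MS275 was -1.31 without rapamycin, -2.14 on 1 nM and -1.98 on 10 nM, and its interactions were -0.83 ± 0.29 at 1 nM (limma adjusted p = 0.682) and -0.67 ± 0.31 at 10 nM (limma adjusted p = 1.0). For NLRC5 they were 0.50 ± 0.34 (adjusted p = 0.682) and 0.32 ± 0.36 (adjusted p = 1.0). For IFI6 they were -0.37 ± 0.56 and -0.88 ± 0.59, with wide errors. Between the rapamycin doses, 10 nM against 1 nM called 0 members without MS275 and 0 with it, and 0.0% of all genes in both cases (limma, with 0 members at an unadjusted p under 0.05 in each, where 0.121% and 0.769% of all genes were).

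**Figure D4:**
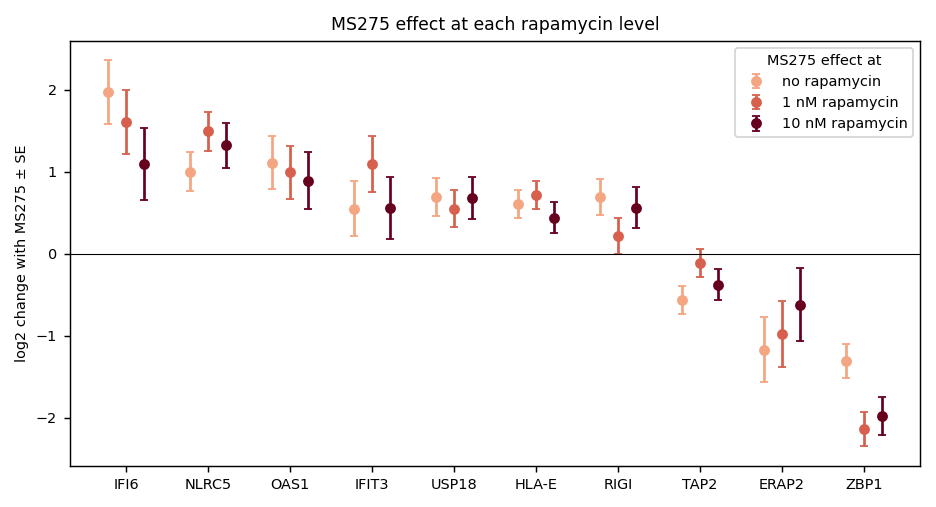
Log2 change with MS275 and its standard error at 0, 1 and 10 nM rapamycin, for the 10 members called in the MS275 main effect. All 10 members kept their direction at each dose, 7 of them positive and ZBP1, ERAP2 and TAP2 negative. The main effect that selected them is the mean of the changes shown, which favours a shared direction.

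Other genes of the pathway were counted in lists that hold no member. In the MS275 main effect 8.13% of all genes were called, 4.54% higher and 3.59% lower. In the rapamycin main effect 2.35% were called, 0.41% higher and 1.94% lower. Of 12 interferon ligands and receptors, 0 passed in either main effect in limma, with 2 at an unadjusted p under 0.05 for MS275 and 3 for rapamycin. In the same fits 18.4% of all genes were under that unadjusted p for MS275 and 11.0% for rapamycin. The interferon genes themselves had low signals, with a mean log2 level of 3.19 for IFNB1 (range 2.94 to 3.80), 2.34 for IFNA1 (2.07 to 3.17) and 2.92 for IFNG (2.58 to 3.30). Of 13 receptor signalling genes, JAK1, a kinase bound to interferon receptors, was the only one called with MS275 (10.24 with, 9.47 without, 0.78 ± 0.21, adjusted p = 0.0303), and the phosphatase PTPN6 the only one with rapamycin (-0.68 ± 0.17, adjusted p = 0.0476). Of 14 sensing genes, 3 fell with MS275: the kinase IKBKE (-0.72 ± 0.14, adjusted p = 0.00473), TRIM25, a ubiquitin ligase that activates RIGI (-0.57 ± 0.11, adjusted p = 0.00514), and the adaptor MYD88 (-0.51 ± 0.12, adjusted p = 0.0159). Of 16 class I chaperones and proteasome partners, 3 fell with MS275: the tapasin-related TAPBPL (-0.99 ± 0.18, adjusted p = 0.00261) and the constitutive proteasome subunits PSMB6 (-0.78 ± 0.20, adjusted p = 0.0267) and PSMB5 (-0.59 ± 0.17, adjusted p = 0.0441). SEC61A1, of the translocation channel, fell with rapamycin (-0.71 ± 0.14, adjusted p = 0.0133). Of 32 further interferon-induced genes, 4 rose and 1 fell with MS275, among them TNFSF10 (TRAIL, 1.30 ± 0.19, adjusted p = 0.000768), DTX3L (1.04 ± 0.19, adjusted p = 0.0032) and SP110 (0.58 ± 0.11, adjusted p = 0.00489). SAMD9L, the paralog of SAMD9, rose with rapamycin by 1.13 ± 0.16 (adjusted p = 0.00157), with no array with rapamycin overlapping one without it. All of these are limma tests over all genes.

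A group of members varied with the replicate number of the labels. In 8 members, PSMB8, PSMB9, PSMB10, IFI35, IFIT3, IFITM2, ISG20 and OAS1, replicate 2 was the lowest array in all 5 groups of 3, and the same held for 8.24% of all genes. ISG20, an exonuclease that degrades RNA, read 9.03, 7.37 and 8.81 in MS275 cells, against 8.95, 7.24 and 7.57 in control cells. PSMB8, another immunoproteasome subunit, read 9.99, 9.0 and 9.88 in MS275 cells, against 10.43, 9.23 and 10.02 in control cells. Replicate 2 was the lowest array in each of these groups. Other members followed the replicate number in another way. Replicate 3 was the lowest array in all 5 groups of 3 for NLRC5 and TAPBP. The highest array in all 5 was replicate 2 for ERAP2, replicate 1 for OASL and replicate 3 for IFIT3. How often these further patterns hold over all genes was not counted. The part of culture, RNA preparation or array in these patterns was not tested. The median SD within groups was 0.33 over the members and 0.31 over all genes, and the 95% interval reached a median of 0.539 to either side for a difference between groups of 3 over all genes, against 0.324 for the MS275 main effect and 0.337 for the rapamycin main effect.

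**Figure D5:**
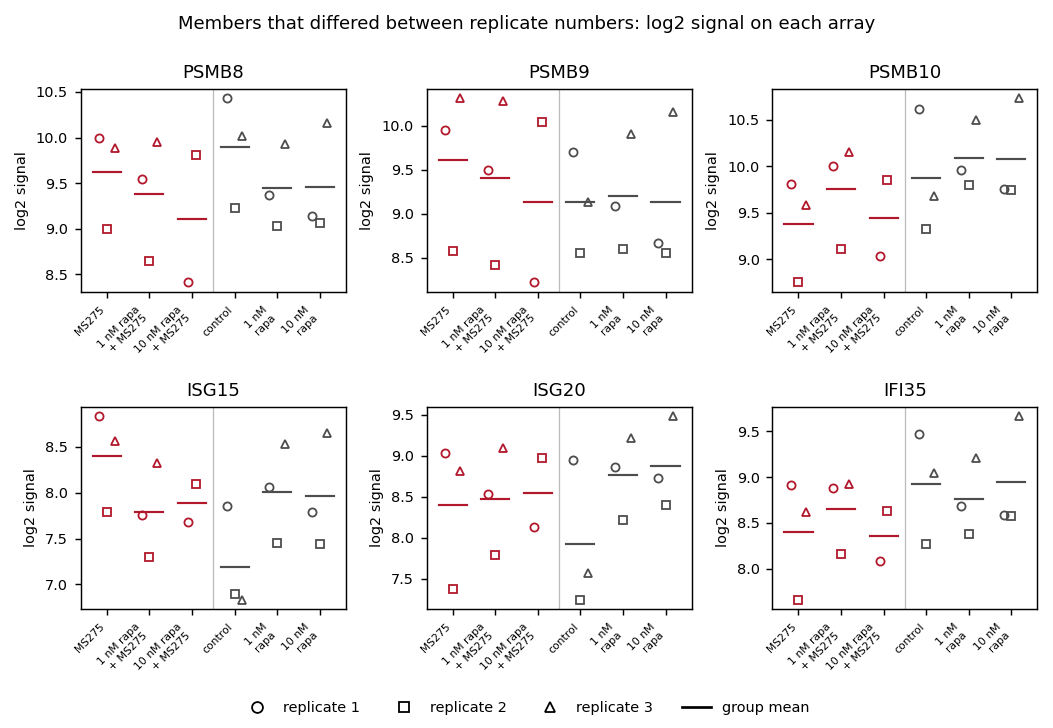
Log2 level on each array, by treatment group and replicate number, for PSMB8, PSMB9, PSMB10, ISG15, ISG20 and IFI35. Replicate 2 is the lowest array of every group of 3 for PSMB8, PSMB9, PSMB10, ISG20 and IFI35.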

How the data were processed

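RNA of L363 cells was extracted with TRIzol, amplified, labelled with biotin and hybridised, per the labels' protocols. The deposited values are log2 intensities on 17 arrays, which the authors made with RMA in the affy package, per the submitters' processing notes; RMA corrects background, makes the arrays' distributions alike and pulls weak signals together. Of 54613 probe sets 41091 name 1 gene symbol, 1801 several and 11721 none, and only the first kind was used. Symbols were updated through Entrez identifiers (41037 matched). limma 3.58.1 in R 4.3.3 fitted 6 group means to the 19775 genes, with Benjamini-Hochberg adjustment over all of them in each of 15 comparisons and a threshold of 0.05; the code was tested on simulated data. The precision is limited by how many arrays each group has.

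The members and the other gene lists were chosen with earlier results of these data known. Values are printed for members past the threshold in any comparison and for a fixed set of NLRC5, B2M, HLA-B, HLA-E, TAP1, PSMB9, IRF1, IRF9, ISG15, IFI6 and IFIT1; of each other list the 3 genes with the smallest adjusted p in each main effect could be named. Arrays with the same replicate number in the labels deviated together in 7 of 10 pairs of groups that share 3 numbers (every correlation over 0.1, 0.286 to 0.853), among the control, MS275, 1 nM rapamycin and 1 nM combination groups and between the 2 rapamycin doses. There a fit that blocks on the replicate number is given beside a result whose call it changes, and likewise for the main effects, which also hold the 10 nM combination. Every block fit took that group by its labelled numbers, although its same-numbered arrays were not shown to deviate together with those of other groups. The alternatives tried were that block, quantile normalization, median centring, array weights, the mean of a gene's probe sets, a filter at a mean log2 of 5, a trend in eBayes, only the groups compared, leaving out the 2 narrow arrays, and leaving out each array in turn.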

Additional observations from a re-analysis of the deposited data

Results flagged for a closer look

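In 4 cases every array of a rapamycin group lay on one side of the mean of the control arrays, and every array of the matching combination lay on the other side of the mean of the MS275 arrays. This sets arrays against group means and does not hold for every pair of arrays with the same replicate number. The search covered only members past the threshold in any comparison and the fixed set, for MS275 effects as well as rapamycin effects. How often such a pattern arises over all genes was not counted. TAP2, the transporter subunit, had a 1 nM rapamycin effect of 0.16 with MS275 and -0.30 without it, and the difference, taken as without minus with, was -0.47. The limma interaction for TAP2, taken as with minus without, was 0.47 ± 0.24 (adjusted p = 0.682). The other differences are taken as without minus with too. IRF9 had a 10 nM rapamycin effect of -0.13 with MS275 and 0.40 without it, a difference of 0.53, and the interaction did not pass (adjusted p = 1.0 in limma). ISG15 had a 1 nM rapamycin effect of -0.61 with MS275 and 0.82 without it, a difference of 1.42, with an interaction of -1.42 ± 0.57 (adjusted p = 0.682 in limma). At 10 nM the ISG15 effect was -0.51 with MS275 and 0.77 without it, a difference of 1.28 (adjusted p = 1.0 in limma). None of these differences passed the test over all genes. Groups of 2 or 3 arrays are too small for a test of single outlying arrays.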

How the results depend on the processing

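Of 26 member calls over the comparisons, 14 were kept when each of the 17 arrays was left out in turn. The count of called members ranged 6 to 11 for the MS275 main effect, with 6 without MS275 replicate 1 or 3, 1 nM rapamycin replicate 1 or 2, 10 nM rapamycin replicate 1 or 2, or 10 nM combination replicate 2. For the rapamycin main effect it ranged 1 to 4, with 1 without MS275 replicate 1 and 2 without MS275 replicate 3, control replicate 3, 1 nM rapamycin replicate 1 or 3, or 10 nM combination replicate 1. It ranged 1 to 3 for MS275 against control, 3 to 4 and 0 to 4 for the 1 nM and 10 nM combinations against control, 2 to 4 and 1 to 2 for the combinations against rapamycin at 1 nM and 10 nM, and 0 to 0 in the other comparisons. The share of all genes called in each of these leave-one-out fits is not given. The ranges therefore do not show whether members moved differently from other genes. The counts below each have the share of all genes called in the same fit in parentheses. With array weights they were 9 for MS275 against control (7.61%), 11 for 1 nM (14.2%) and 6 for 10 nM rapamycin against control (9.87%), 5 for the 1 nM (7.08%) and 6 for the 10 nM combination against control (7.86%), and 6 for the 1 nM combination against 1 nM rapamycin (4.66%). With the replicate block they were 2 for 10 nM rapamycin against control (1.15%), 5 for the 1 nM (5.22%) and 6 for the 10 nM combination against control (6.79%), and 4 for the 1 nM combination against 1 nM rapamycin (2.83%). The block ended no call; besides those in the report it added ZBP1 and SAMD9 for 10 nM rapamycin, and TAP2, RIGI and SAMD9 for the 10 nM combination, both against control. The mean of all probe sets gave 4 for MS275 (1.46%) and 5 for the 1 nM combination (2.75%) against control, and leaving out the 2 narrow arrays gave 4 for MS275 (2.69%). With only the groups compared, which leaves fewer arrays to estimate the spread, MS275 (0.0455%) and the combinations (0.0% each) against control gave 0, and the combinations against rapamycin gave 1 at 1 nM (0.197%) and 0 at 10 nM (0.0%). Median centring gave 1 for the 10 nM combination against control (2.89%). The eBayes trend gave 1 there (2.54%), 2 for the rapamycin main effect (1.89%) and 1 for the 10 nM combination against 10 nM rapamycin (0.334%), where quantile normalization (0.46%) and the filter on dim genes (0.502%) gave 1 too. The MS275 main effect on PSMB9, 0.23 over all arrays, ranged from -0.08 without replicate 2 of the 10 nM combination to 0.53 without its replicate 1. The cause of these shifts was not tested. Correlations of same-numbered arrays with the 10 nM combination fell as low as -0.743; its replicate 1 was closest to replicate 2 of the 1 nM combination (r = 0.994) and its replicate 2 to replicate 3 (r = 0.993). Dim members have the least certain changes, since signal over background is unknown.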
